A study of Mus musculus with 2 samples.

Results

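Follistatin, activin A, BMP and TGF-beta signals and the Id genes were followed as 10 genes across the cell states of cultured mouse epidermis. They are Fst, Inhba, Bmp2, Bmp4, Tgfb1, Tgfb2, Smad7, Id1, Id2 and Id3, chosen by name and found by their NCBI gene identifiers among 36528 identifiers in each of 2 droplet libraries (10x Chromium 3′). The cells came from C57BL/6 mice at postnatal day 1 and were pooled by genotype. The library labelled wild type was made from 11 neonates carrying Rosa26-CreERT2, a recombinase switched on by tamoxifen that the Rosa26 locus expresses in most tissues. The library labelled knockout was made from 9 neonates carrying Rosa26-CreERT2 and Bap1 fl/fl. Bap1 encodes a nuclear enzyme that removes ubiquitin from histone H2A. Both pools were treated alike with 100 nM 4-hydroxytamoxifen (4-OHT) for 4 days and grown for 3 further days without it, in M254 medium with a human melanocyte growth supplement.

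Each genotype gave 1 library, so no value has a replicate spread and nothing could be tested. Every difference is one between these 2 libraries, and every 95% interval covers counting error only. The libraries held 1926 and 1760 cells with 77579465 and 64954113 unique molecular identifiers (UMIs, tags that count RNA molecules), and 3 cell barcodes occurred in both. Bap1 RNA went against the label: in the keratin-rich clusters it had 1041 and 1223 UMIs, or 14.02 and 19.6 CPM (UMIs per 1000000 of the class total), a log2 ratio of 0.49 (0.37 to 0.61). Reads of this kit lie near the 3′ end of a transcript, so RNA that has lost other exons can still be counted. Which exons are floxed is not stated in the labels. The libraries are therefore named by their labels, the wild type first in each pair of values.

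Clusters 0 to 6 were rich in keratin RNA and held 1750 of 1912 kept cells in the library labelled wild type and 1597 of 1738 in the library labelled knockout. Their basal keratinocyte markers summed to 7159 and 5475 CPM, with 0 of 9 markers absent from either library. Cluster 3 carried 5 markers of cornifying keratinocytes (Ivl, Sprr1b, Sprr2d, Krtdap and Sbsn), and cluster 5 carried 7 of cycling cells, Top2a and Cdk1 among them. The other keratin-rich clusters have no name and are told apart by leading genes: Cxcl5 and Ccl20 in cluster 0, Nupr1 and Gdf15 in cluster 1, Igfbp2 and Nppb in cluster 2, Dio3 and Epgn in cluster 4, and Plau and Notch2 in cluster 6. The 2 libraries filled these clusters unequally. Cluster 0 held 744 and 67 cells, cluster 1 19 and 680, cluster 4 5 and 320, cluster 5 145 and 19, and cluster 6 122 and 16. Only cluster 2, with 376 and 276 cells, and cluster 3, with 339 and 219, had over 100 cells of each library. Outside them were 59 and 36 Schwann-like, 22 and 56 melanocyte-like and 36 and 20 myeloid-like cells. Cluster 9, with 45 and 29 cells and 6 markers of fibroblasts, stayed unnamed. Its skeletal muscle markers summed to 1095 and 1867 CPM. Of these, Myog, Myod1, Des, Tnnt1 and Pax7 were at 0 in the library labelled knockout, against Pax7 alone in the other. Of the 10 genes, Fst, Inhba, Tgfb2, Id1, Id2 and Id3 were among the variable genes used for clustering, so their differences between clusters are a description.

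Inhba, Bmp2, Bmp4, Tgfb1 and Tgfb2 encode ligands of the TGF-beta superfamily, secreted dimers that bind pairs of serine/threonine kinase receptors. Activins and TGF-betas signal mainly through Smad2 and Smad3, and BMPs through Smad1, Smad5 and Smad8. Follistatin, the product of Fst, binds activin outside the cell and blocks it, and activin can itself induce Fst. Smad7 is an inhibitor induced by the pathway that blocks the receptors. Id proteins have a helix-loop-helix domain without a DNA-binding part, pair with E proteins and so hold back differentiation, and Id1, Id2 and Id3 are among the best known BMP targets. In skin, activin is induced after wounding, TGF-beta restrains keratinocyte growth, and BMPs act in hair follicle formation and in differentiation.

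In the keratin-rich clusters the library labelled knockout held less Fst and more Id1 RNA, and modestly more Inhba and Id3. At a limit of 1.5-fold with at least 100 UMIs over both libraries, 3 of the 10 genes were higher (Bmp2, Id1 and Id3) and 2 were lower (Fst and Bmp4). Over all 13553 genes measured there, 5.37% were higher and 13.8% lower by the same rule. The median log2 ratio was −0.029 over the 10 genes and 0.00045 over all genes. In cluster 2, 2 of 8 genes with enough UMIs were higher (Id1 and Id3) against 4.48% of all genes, and 1 was lower (Fst) against 13.6%. In cluster 3, 2 of 8 were higher (Inhba and Id1) against 4.19%, and 0 were lower against 8.95%. All 10 genes reached 100 UMIs, Bmp4 with 82 and 22 UMIs and Bmp2 with 84 and 122 by the narrowest margins. The genes were listed with earlier results of these libraries known, so these counts describe them and support nothing further.

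**Figure D1:**
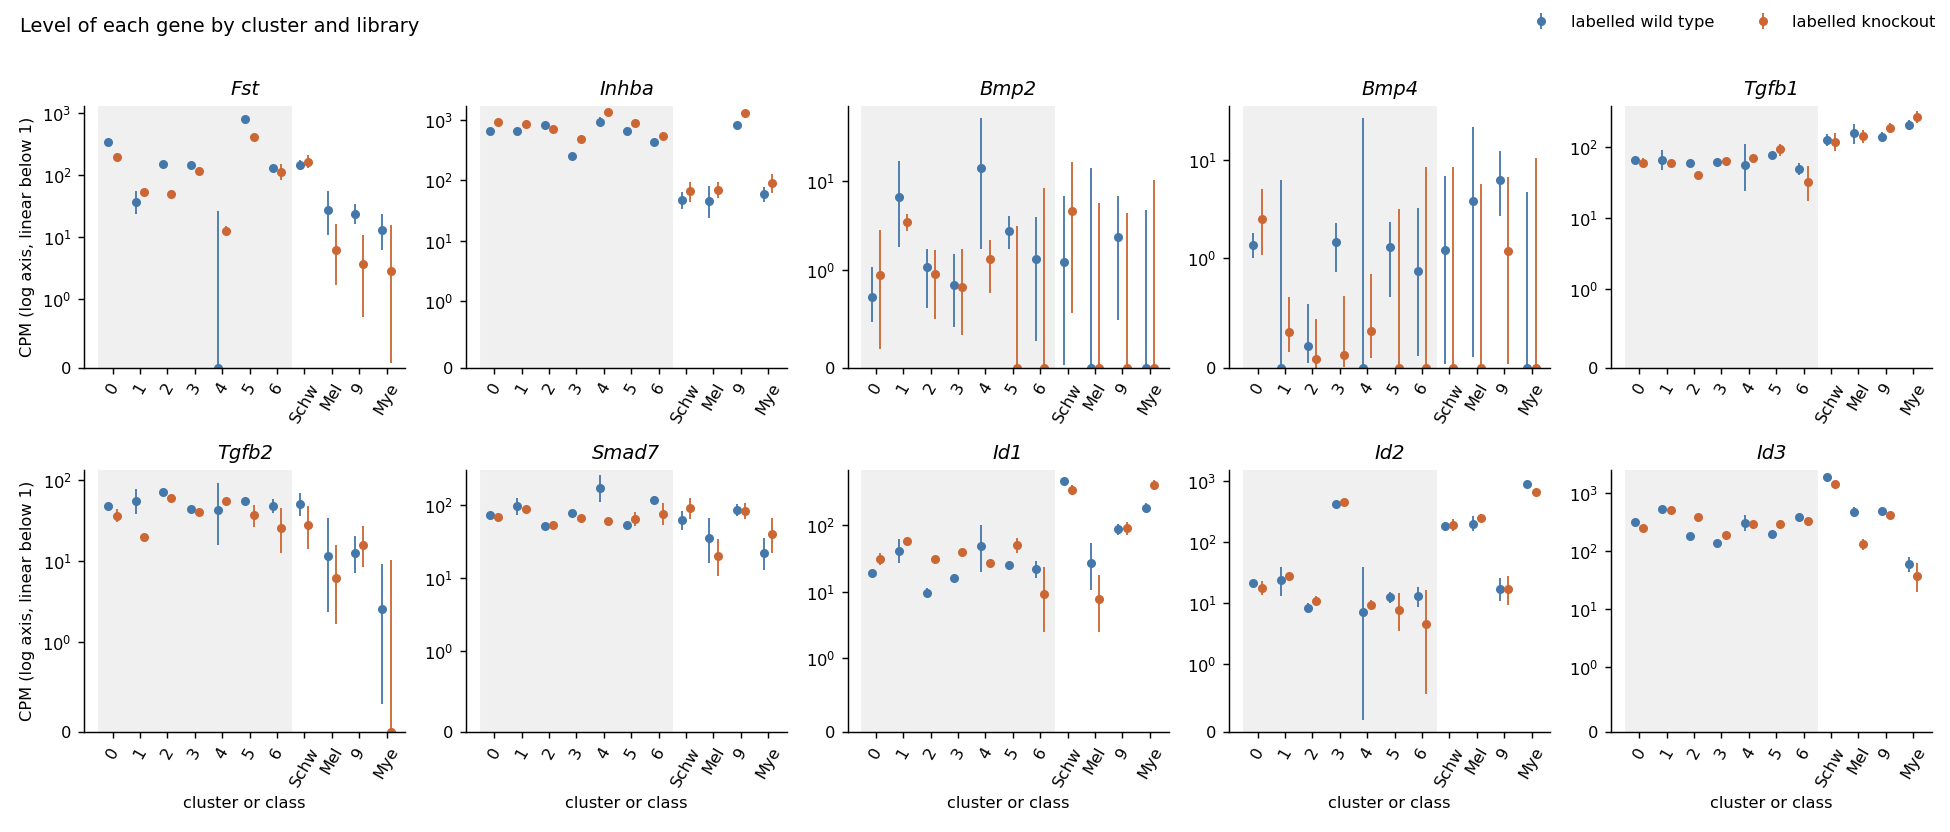
Level of each gene in CPM (log axis, linear below 1) in clusters 0 to 6 (grey), Schwann-like (Schw), melanocyte-like (Mel), unnamed (9) and myeloid-like (Mye) cells, as sums over the cells of the library labelled wild type (blue) or knockout (orange), with exact Poisson 95% bars. Id2 stands highest among the keratin-rich clusters in cluster 3, Fst in cluster 5, and Id3 is highest of all in Schwann-like cells at 1839 and 1415 CPM.

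Fst was the gene with the widest gap. It had 22760 and 4152 UMIs, or 306 and 66.7 CPM, a 4.59-fold lower level in the library labelled knockout (log2 −2.20, −2.25 to −2.15). Cells differed widely within each library. In the library labelled wild type the median cell had 47.1 CPM, the 75th percentile 192, the 90th 892 and the highest cell 7881. In the library labelled knockout the median cell had 0, the 75th percentile 23.0, the 90th 84.8 and the highest cell 6170 CPM. The ranges overlapped almost wholly, while the median, the 75th and the 90th percentile were all lower in the library labelled knockout. The top 10% of cells held 69.6% and 88.4% of all Fst UMIs.

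Fst was highest in the cycling cluster 5, at 786 and 412 CPM, which supplied 29.4% of the Fst UMIs in the library labelled wild type from 145 cells. Cluster 0 had 336 and 192 CPM, and clusters 2, 3 and 6 had 151 and 48.1, 144 and 114, and 128 and 112. Cluster 1, mostly of the library labelled knockout, had 36.6 and 53.0 CPM. In cluster 4 the 5 cells of the library labelled wild type had 0 UMIs, where 3 UMIs would be 21.2 CPM. The 320 cells of the other had 12.5 CPM. The level was lower in the library labelled knockout in clusters 0, 2, 3 and 5 beyond counting error, by 1.75, 3.13, 1.27 and 1.91-fold. With the cluster makeup of the library labelled wild type given to both, Fst was 306 and 170.2 CPM, 1.80-fold lower. With that of the library labelled knockout it was 97.1 and 66.7 CPM, 1.45-fold lower, a value that rests on 24 cells of the library labelled wild type in clusters 1 and 4. The 4.59-fold gap was thus smaller with either makeup. Clusters 0, 1, 4, 5 and 6 were mostly of 1 library, and Fst was among the genes used for clustering. A part of makeup and a part inside clusters therefore cannot be told apart.

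Markers of other cell states moved with this difference in the summed keratin-rich clusters. The 8 cycling markers summed to 363 and 93.6 CPM, all 8 of them lower, the 7 inflammatory keratinocyte markers to 2646 and 1517, and the 6 stress markers to 1206 and 2701. Their part in the result was not tested. Inside cluster 2, where Fst was 3.13-fold lower, the cycling markers summed to 53.0 and 20.1 CPM and 0 of 8 were absent from either library. Other marker lists moved inside cluster 2 as well, beside its Fst, Id1 and Id3 values. Markers of simple epithelium summed to 9573 and 20494 CPM, those of skeletal muscle to 380 and 1553, those of basal keratinocytes to 6362 and 4769 with 7 of 8 lower, and the stress markers to 591 and 958. Inside cluster 3 the cornifying markers summed to 2193 and 1292 CPM, with 3 of 8 higher and 1 lower. Its inflammatory keratinocyte markers summed to 2131 and 1408 CPM, and its contractile cell markers to 2744 and 3408. The part of these lists in the values of either cluster was not tested.

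Inhba, which encodes the beta A subunit that forms activin A as a homodimer, was plentiful in both libraries. It had 45560 and 54800 UMIs, or 613 and 880.5 CPM, 1.44-fold higher in the library labelled knockout (log2 0.52, 0.50 to 0.54), which is under the 1.5-fold limit. The median cell had 449 and 599 CPM, the 90th percentile 1408 and 2038, and the highest cell 4107 and 7024. Inhba was higher in 6 of 7 clusters beyond counting error, from 1.26-fold in cluster 6 to 1.91-fold in cluster 3, at 253 and 482 CPM. Cluster 2 went the other way, with 820.1 and 709.8 CPM (log2 −0.21, −0.25 to −0.17). Its median cell had 726 and 419 CPM, a wider gap than that of the sum, while its 90th percentile was 1606 and 1824. The median cell was also higher in clusters 1, 3, 4, 5 and 6, but in cluster 0 it had 511 and 507 CPM. In cluster 3 it had 135 and 180 CPM, and that cluster held the cell at 7024 CPM. Clusters 1, 4, 5 and 6 have 5 to 19 cells in the smaller arm, and cell-to-cell spread is not in the intervals. Cluster 3 had the lowest and cluster 4 the highest level of Inhba in each library.

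Because activin and its antagonist are counted in the same cells, their ratio does not depend on the scaling. The library labelled wild type had 2.0 (1.97 to 2.03) Inhba UMIs per Fst UMI, against 13.2 (12.8 to 13.6) for the library labelled knockout, a 6.59-fold change. Within clusters the change was 2.49-fold in cluster 0, 2.71-fold in cluster 2, 2.41-fold in cluster 3 and 2.52-fold in cluster 5. Cluster 6 had 3.42 and 4.94 Inhba UMIs per Fst UMI, and cluster 1 had 17.9 and 16.6 with overlapping intervals. These are RNA counts, and no protein was measured.

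**Figure D2:**
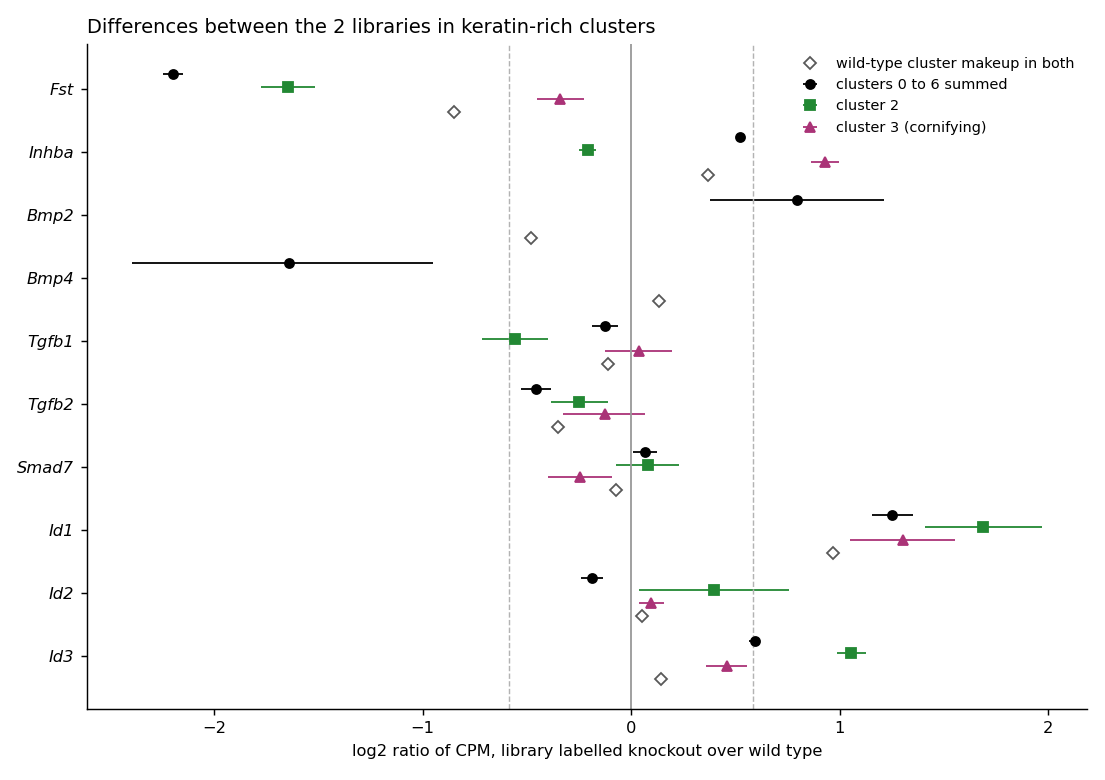
log2 ratio of CPM, library labelled knockout over wild type, for each gene in clusters 0 to 6 summed (black), cluster 2 (green) and cluster 3 (purple), with conditional exact 95% bars, and for clusters 0 to 6 with the wild-type cluster makeup in both libraries (open diamonds, no interval). Dashed lines mark 1.5-fold, and genes under 100 UMIs in a cluster are not drawn for it. Id1 lies right of the upper line in all 4 measures, while Fst moves from −2.20 to −0.34 between the sum and cluster 3.

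The TGF-beta ligand genes differed less. Tgfb1, which encodes an isoform stored in latent form in the matrix, had 4793 and 3686 UMIs, or 64.5 and 59.2 CPM (log2 −0.12, −0.19 to −0.062). Across the keratin-rich clusters it ran from 49.1 to 76.4 CPM in the library labelled wild type and between 32.0 and 92.8 with the knockout label. Cluster 2 was the only one of the 7 where it differed beyond counting error, at 59.6 and 40.5 CPM. Tgfb2 had 3920 and 2395 UMIs, or 52.8 and 38.5 CPM (log2 −0.46, −0.53 to −0.38), and was lower in clusters 0, 1, 2, 5 and 6 beyond counting error. The widest gap was in cluster 1, at 54.9 and 19.5 CPM, with 33 UMIs from 19 cells behind the first value. Both ligand genes stayed under the 1.5-fold limit in the sum.

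Smad7 differed little between the libraries. It had 5004 and 4392 UMIs, or 67.4 and 70.6 CPM (log2 0.067, 0.008 to 0.13). The median cell had 57.6 and 62.5 CPM. It was lower in 5 of 7 clusters, in 3 of them beyond counting error, and higher beyond it in 0. Cluster 3 had 77.0 and 65.0 CPM and cluster 2 had 50.3 and 53.2. The direction of the sum turned with the cluster makeup, to a log2 ratio of −0.072 with that of the library labelled wild type, −0.45 with that of the other and −0.18 without cluster 1. The value of −0.45 rests largely on 19 and 5 cells of the library labelled wild type in clusters 1 and 4.

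The BMP ligand genes were rare. Bmp2, a BMP also made by dermal cells, had 1.13 and 1.96 CPM (log2 0.79, 0.38 to 1.21). Of its 122 UMIs in the library labelled knockout 68.9% lay in cluster 1, and without cluster 1 the log2 ratio was −0.11. With the cluster makeup of the library labelled wild type it was −0.48. Bmp4, a BMP of dermal papilla and mesenchyme, had 1.10 and 0.353 CPM (log2 −1.64, −2.39 to −0.95). A single cell held 27.3% of its 22 UMIs in the library labelled knockout, and with the cluster makeup of the library labelled wild type the log2 ratio was 0.13. Neither direction was kept once the cluster makeup was equal.

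Id1 was higher in the library labelled knockout. It had 1309 and 2616 UMIs, or 17.6 and 42.0 CPM, 2.38-fold higher (log2 1.25, 1.16 to 1.35). The median cell had 0 in each library, the 90th percentile 51.4 and 119 CPM, and the highest cell 803 and 1473. Id1 was higher beyond counting error in clusters 0, 2, 3 and 5, at 18.9 and 31.2, 9.71 and 31.3, 16.2 and 40.0, and 25.6 and 50.2 CPM. The widest of these gaps was 3.22-fold in cluster 2. Clusters 4 and 6 had the lower level in the library labelled knockout, from 7 and 4 UMIs in the smaller arm, with intervals that include 0. With the cluster makeup of the library labelled wild type the level was 17.6 and 34.5 CPM, 1.96-fold higher. With that of the library labelled knockout it was 31.7 and 42.0 CPM, 1.33-fold higher and under the limit. The first of these values rests largely on 19 and 5 cells of the library labelled wild type in clusters 1 and 4.

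Id3 was also higher, at 18360 and 23202 UMIs or 247 and 373 CPM, 1.51-fold (log2 0.59, 0.56 to 0.62). The median cell had 163 and 257 CPM, the 90th percentile 591 and 883. Inside clusters the direction was mixed. Cluster 2 had 181 and 377 CPM, 2.08-fold higher, cluster 5 196 and 285, and cluster 3 135 and 185. In cluster 3 the median cell had 51.0 and 52.1 CPM, and the 90th percentile was 348 and 440. Cluster 0 had 318 and 249.7 CPM, lower in the library labelled knockout (log2 −0.35, −0.46 to −0.25), and cluster 1 had 526 and 499. With the cluster makeup of the library labelled wild type the difference shrank to 1.10-fold. Cluster 1 had the highest Id3 level of the keratin-rich clusters in each library and held 680 cells of the library labelled knockout.

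Id2 differed far more between cell states than between libraries. It had 6510 and 4792 UMIs, or 87.6 and 77.0 CPM (log2 −0.19, −0.24 to −0.13). The cornifying cluster 3 held 84.5% and 79.3% of its UMIs, at 419 and 448 CPM, and no other keratin-rich cluster passed 27.8 CPM in either library. Inside clusters it was higher beyond counting error in 2 and lower in 0. The lower sum turned in 7 of 24 settings, among them the cluster makeup of the library labelled wild type (log2 0.053) or knockout (0.12) and leaving out cluster 1 (0.30) or cluster 3 (0.16), and it was −0.86 without cluster 0. Within cluster 3 the median cell had 185 and 197 CPM and the highest 6339 and 4497. When the cells were clustered without the 10 genes, the cornifying cluster, with 295 and 214 cells, had 479 and 454 CPM, so its high Id2 level did not depend on Id2 having been used to find it. The direction between libraries did turn, to a log2 ratio of −0.077 (−0.14 to −0.017), where cluster 3 had the higher value with the knockout label. In that cluster Id1 was 16.4 and 38.3 CPM, Inhba 241 and 487, and Fst 155 and 115.

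The 250 bases before the start of the Id3 and Id2 genes are shown because both genes are textbook Smad targets and here differ so in where they are expressed. Motifs searched on both strands were CAGAC, the core Smad-binding element, its palindrome GTCTAGAC, the GC-rich Smad box GGCGCC, the E box CACGTG and the cyclic AMP element TGACGTCA, and no motif contains another. Capitals mark the matches. The sequences are from RefSeq, GRCm38, and are written 5′ to 3′ on the gene's strand.
Id3 (chr4:136143572-136143821, plus strand): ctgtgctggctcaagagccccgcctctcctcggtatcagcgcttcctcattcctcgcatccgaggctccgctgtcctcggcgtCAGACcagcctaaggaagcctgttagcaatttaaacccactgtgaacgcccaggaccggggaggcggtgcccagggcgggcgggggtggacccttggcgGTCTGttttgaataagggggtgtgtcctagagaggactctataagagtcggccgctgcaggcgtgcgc
Id2 (chr12:25096093-25096342, minus strand): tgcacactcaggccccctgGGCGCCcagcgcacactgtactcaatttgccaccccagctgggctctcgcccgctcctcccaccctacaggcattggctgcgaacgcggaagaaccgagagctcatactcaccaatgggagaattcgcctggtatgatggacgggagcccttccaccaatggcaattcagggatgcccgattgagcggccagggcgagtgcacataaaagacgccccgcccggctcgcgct
The Id3 window holds CAGAC on each strand, 2 matches in all, and the Id2 window holds GGCGCC at 1 place. Of 32851 mouse gene windows of the same length, 42.2% hold CAGAC, 9.59% GGCGCC, 6.02% CACGTG, 1.55% TGACGTCA and 0.167% GTCTAGAC. A match is a description of letters and not a bound site.

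The share of cells with a UMI differed in the same directions. After thinning every cell to 8000 UMIs, with 0 cells left out, Fst was found in 42.2% and 13.3% of the keratin-rich cells (70.6% and 31.7% without thinning, at median depths of 39773 and 35676 UMIs). Id1 was found in 10.3% and 20.2% (30.9% and 44.6% without thinning), Id3 in 66.6% and 75.1% (91.8% and 93.1%) and Inhba in 86.0% and 89.5% (97.8% and 98.4%). Myeloid-like cells, which should lack Fst, had it in 5.56% and 5% after thinning and 22.2% and 5% before, at median depths of 19444 and 16120 UMIs. The Fst shares of keratin-rich cells were the higher values in each library. With the knockout label the myeloid-like share is 1 UMI in 20 cells, too few to say that 13.3% lies above it. Inhba was found in 38.9% and 35% of thinned myeloid-like cells and Id3 in 27.8% and 20%. Id1 was found in 9.09% and 7.14% of thinned melanocyte-like cells, at median depths of 10993 and 10126 UMIs, so the keratin-rich share of Id1 in the library labelled wild type was close to the lowest share of any class.

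**Figure D3:**
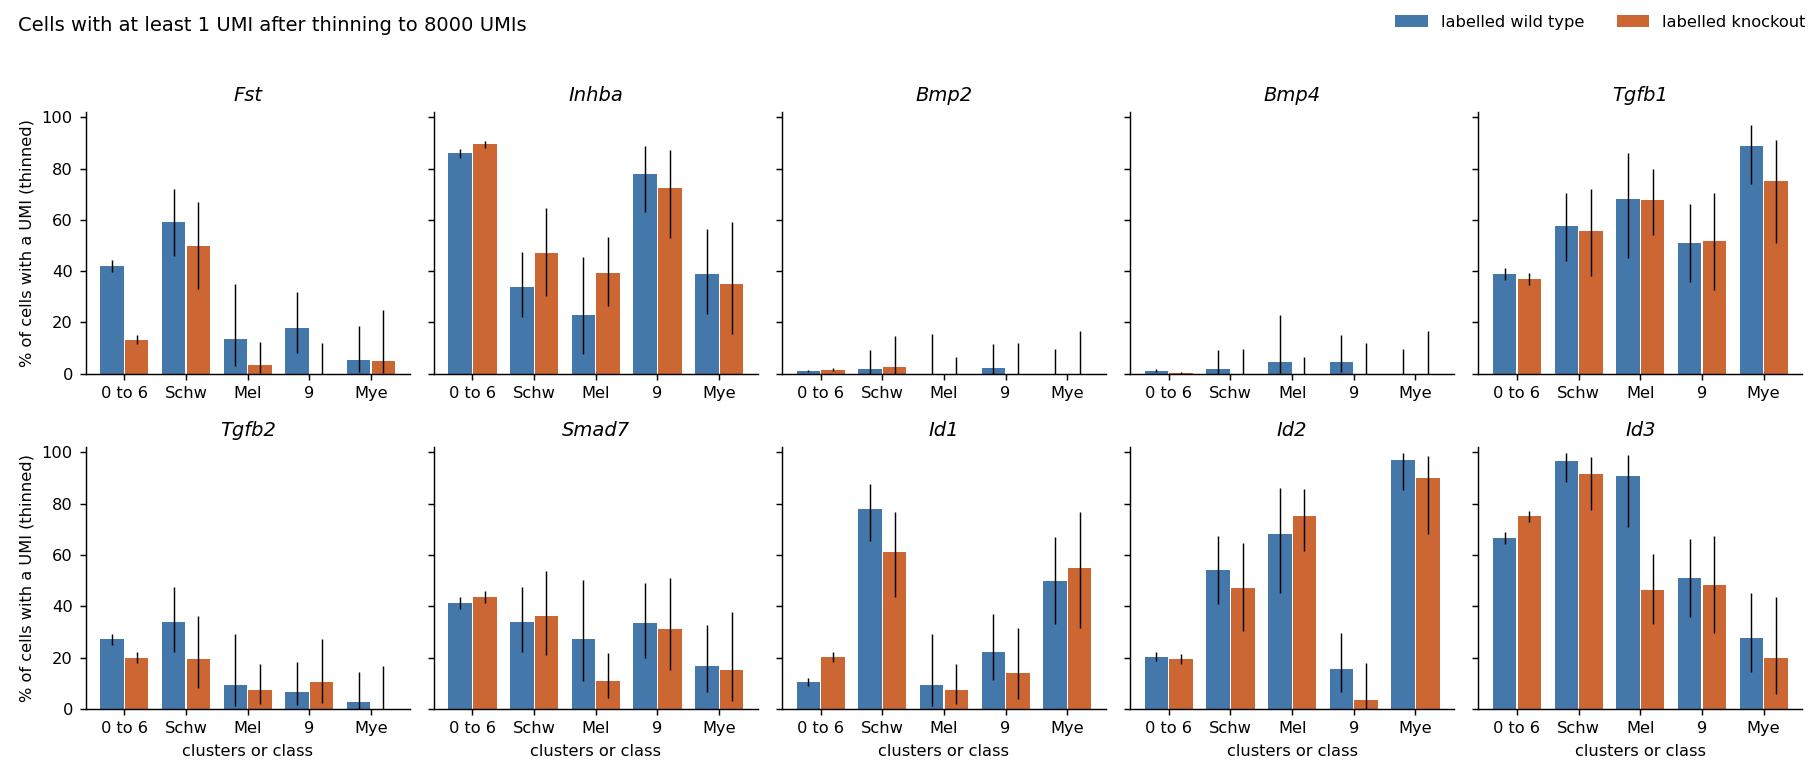
Percent of cells with at least 1 UMI of each gene after thinning each cell to 8000 UMIs, in keratin-rich clusters 0 to 6, Schwann-like (Schw), melanocyte-like (Mel), unnamed (9) and myeloid-like (Mye) cells of the library labelled wild type (blue) and knockout (orange), with exact Clopper-Pearson 95% bars. Fst was found in 42.2% and 13.3% of keratin-rich cells, and Id2 in 97.2% and 90% of myeloid-like cells.

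Keratin RNA was also counted outside the keratin-rich clusters, and its level there served as the background of free RNA. Krt5, Krt7, Krt8, Krt14 and Krt18 together lay at 7.7% to 8.9% of their keratin-rich level in Schwann-like, melanocyte-like and myeloid-like cells, and singly at 6.3% to 40.2%, with Krt8 the highest. Inhba lay at 7.5% to 10.2% of its keratin-rich level in those 3 classes and is read as background there. Fst lay at 4.2% to 9.2% in melanocyte-like and myeloid-like cells, also read as background. In Schwann-like cells it stood at 47.1% and 244% of the keratin-rich level, against 36.3% and 30.6% for Krt8 in the same cells, so the first value is not far above the highest keratin.

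Schwann-like cells, glia that ensheath nerves, had the highest Id3 levels of any class and much Id1. Id3 had 1502 and 618 UMIs, or 1839 and 1415 CPM (log2 −0.38, −0.52 to −0.24), and Id1 had 469 and 341 CPM (log2 −0.46, −0.74 to −0.18). Both were lower in the library labelled knockout, where keratin-rich cells had the higher value. Fst had 118 and 71 UMIs, or 144 and 163 CPM (log2 0.17, −0.28 to 0.61), and Id2 180 and 190.02 CPM, with intervals that include 0. With 10065 UMIs as the minimum per cell, 59 and 24 cells were left, and Id3 had a log2 ratio of −0.59 (−0.75 to −0.43), just past the 1.5-fold limit, and Id1 −0.42 (−0.74 to −0.11). Schwann markers in these cells summed to 2858 and 2441 CPM.

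Melanocyte-like cells, with the pigment genes Dct, Pmel and Mlana, differed most in Id3. It had 122 and 84 UMIs from 22 and 56 cells, or 466 and 129 CPM, 3.61-fold lower in the library labelled knockout (log2 −1.85, −2.27 to −1.44). It was found in 90.9% and 46.4% of the thinned cells. Its levels were 189% and 34.7% of the keratin-rich level, against 40.2% and 31.1% for Krt8, so the second value is not far above the highest keratin. With 10065 UMIs as the minimum per cell in both libraries, 22 and 28 cells were left, with 466 and 123 CPM (log2 −1.92, −2.43 to −1.42). In the library labelled wild type a single cell held 31.1% of the Id3 UMIs, and without the cell richest in Id3 of each library the log2 ratio was −1.602 (−2.08 to −1.13). Pigment markers summed to 60932 and 62451 CPM in these cells and Schwann markers to 642 and 683, while the 8 cycling markers summed to 1398 and 591, with 0 of 8 at 0 in either library. The part of cycling cells in the Id3 difference was not tested. Id2 had 199 and 245 CPM (log2 0.30, −0.16 to 0.78) and Tgfb1 157 and 143 (log2 −0.13, −0.68 to 0.44). Fst, Bmp2, Bmp4, Tgfb2, Smad7 and Id1 had at most 13 UMIs in each library, too few to compare.

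Myeloid-like cells, with the lysozyme gene Lyz2 and the receptor adaptor genes Fcer1g and Tyrobp, were rich in Id2 and Tgfb1. Id2 had 690 and 232 UMIs, or 882 and 651 CPM (log2 −0.44, −0.66 to −0.22), and Tgfb1 207 and 269 (log2 0.38, −0.001 to 0.75). Id1 had 143 and 145 UMIs from 36 and 20 cells, or 183 and 407 CPM (log2 1.15, 0.81 to 1.497), a direction shared with the keratin-rich cells. A single cell held 28.3% of the Id1 UMIs in the library labelled knockout, and without the richest cell of each the log2 ratio was 0.88 (0.48 to 1.26). Melanocyte markers summed to 247 and 1464 CPM in these cells, and their part in the result was not tested. Whether fewer cells or less RNA per cell lie behind a summed level cannot be told apart for rare genes.

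The unnamed cluster 9 had Inhba sums above the keratin-rich level, at 826 and 1321 CPM (log2 0.68, 0.55 to 0.80), and was the only class outside the keratin-rich clusters where Inhba passed the free RNA background. A few cells carried those sums: the median cell had 184 and 106 CPM, the 75th percentile 808 and 398, the 90th 1706 and 3059, and 1 cell of the library labelled knockout held 35.5% of its 1104 UMIs. Without the richest cell of each library the sums were 738 and 926 CPM (log2 0.33, 0.18 to 0.47), under the limit. Its keratins stood at 29.5% and 47.6% of the keratin-rich level. Its muscle markers also differed between the libraries, and their part in the values of this cluster was not tested. At a Leiden resolution of 1, the unnamed cells formed a cluster with 6 fibroblast markers, of 24 and 14 cells, and another with 7 skeletal muscle markers, of 20 and 16. The values of cluster 9 were not split between such cells. Id3 had 491 and 415 CPM, a log2 ratio that was −0.68 (−0.92 to −0.45) without the richest cell of each, Tgfb1 141 and 184, Id1 87.4 and 89.7 and Smad7 84.3 and 82.5. Fst, at 23.4 and 3.59 CPM, had 30 and 3 UMIs.

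**Figure D4:**
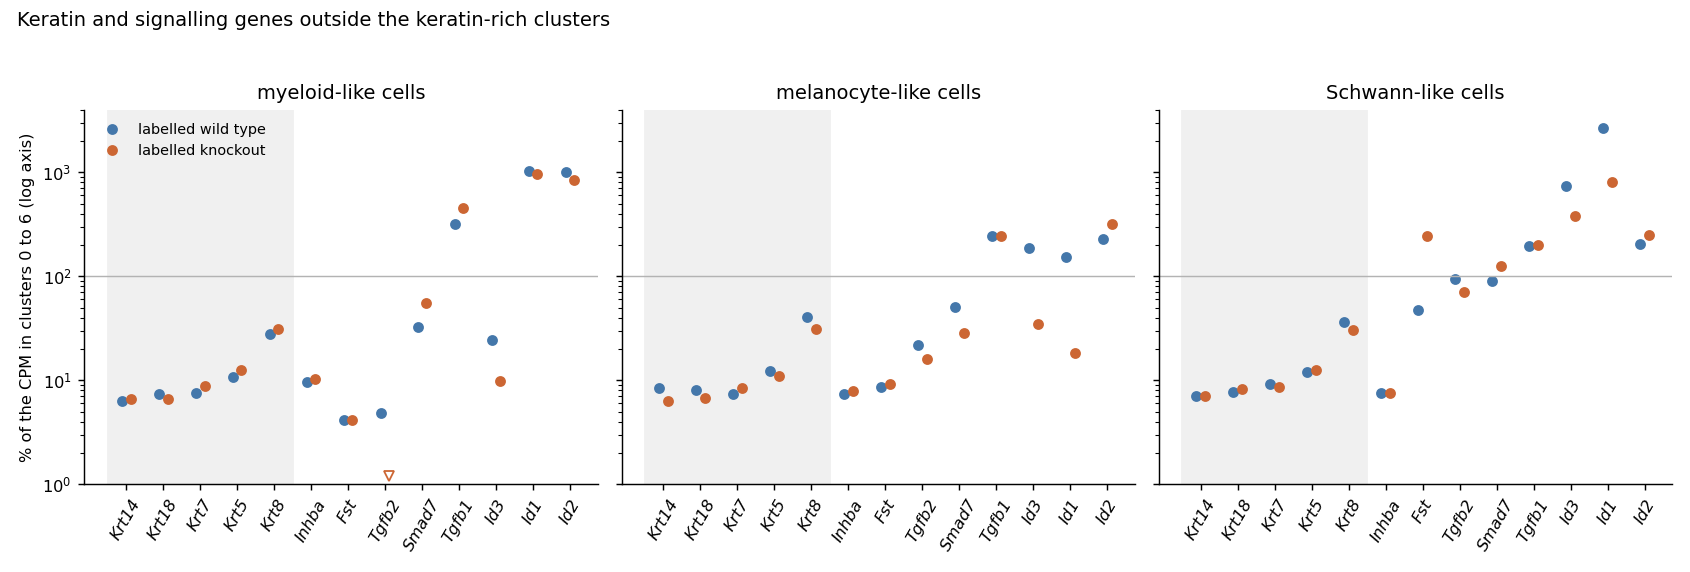
Level in myeloid-like, melanocyte-like and Schwann-like cells as a percent of the level in clusters 0 to 6 (log axis, line at 100%), for 5 keratin genes (grey) and 8 of the 10 genes, in the library labelled wild type (blue) and knockout (orange). An open triangle at the lower edge marks 0 UMIs. Inhba sits with the keratins in all 3 classes, from 7.5% to 10.2%, and Fst leaves them only in Schwann-like cells.

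Other genes of the pathway were read from lists by role, in the keratin-rich clusters and by the same 1.5-fold rule. Some genes stand in 2 lists. Each count is to be read beside the 5.37% of all genes that were higher and the 13.8% that were lower in the sum, and the 4.48% and 13.6% in cluster 2. Among the receptors 1 of 11 was higher and 0 lower (median log2 −0.16), while in cluster 2 the counts were 0 and 3 of 10. That was Acvr1, a type I receptor for BMPs and activin, with 1819 and 3289 UMIs or 24.5 and 52.8 CPM (log2 1.11, 1.03 to 1.19), higher in 7 of 7 clusters. Bmpr1a had 38.2 and 43.4 CPM, Tgfbr1 12.4 and 10.3 and the activin receptor gene Acvr1b 8.87 and 7.21. Of 6 Smad genes 2 were higher and 0 lower: Smad3, at 33.8 and 51.5 CPM (log2 0.61, 0.53 to 0.68), and the BMP inhibitor Smad6, at 1.05 and 1.69 CPM from 78 and 105 UMIs. In clusters 2 and 3, 0 of the 5 Smad genes measured there passed the limit in either direction. Smad4, shared by both branches, had 37.7 and 37.5 CPM, and Smad1, of the BMP branch, 41.0 and 43.5.

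Among 4 other TGF-beta and activin branch ligands 2 were higher and 0 lower, against 2 of 3 higher in cluster 2 and 0 of 2 in cluster 3. Gdf15, a stress-induced distant member, had 22.4 and 65.1 CPM (log2 1.54, 1.46 to 1.62), and Tgfb3 4.93 and 9.37 (log2 0.93, 0.74 to 1.12). Inhbb, the activin beta B gene, had 20.4 and 30.2 CPM, just under the limit, and Inha, whose product makes inhibins, 2.28 and 2.33. Bmp7 alone among the BMP branch list reached 100 UMIs, at 7.07 and 7.39 CPM.

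Of 16 secreted antagonists and genes of latency or activation 5 were higher and 1 lower (median 0.06). In cluster 2 the list ran the other way, with 0 of 12 higher and 4 lower, and Ltbp1, higher in the sum (log2 0.64), was at −0.49 there and at 1.04 in cluster 3. Ltbp2, a matrix protein related to latent TGF-beta binding proteins, had 34 and 138 UMIs or 0.458 and 2.22 CPM (log2 2.28, 1.73 to 2.86), and Lrrc32, which holds latent TGF-beta at the cell surface, 2.05 and 4.15 CPM. Ltbp4 was lower at 3.70 and 1.70 CPM (log2 −1.12, −1.46 to −0.79), and the BMP antagonist Nog had 8.06 and 5.56. Fstl3, a relative of follistatin that also binds activin, had 47.7 and 35.4 CPM (log2 −0.43, −0.51 to −0.35), in the same direction as Fst. Fstl3 lies outside the rule for named genes and was chosen after its values were seen, as were Tnc and Ltbp1. The 8 intracellular inhibitors were all within 1.5-fold, among them Pmepa1 at 313 and 335 CPM, Tgif1 at 553 and 646, Nedd4l at 17.0 and 20.3 and Ski at 29.9 and 28.7.

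TGF-beta and activin targets did not move as a block. In cluster 2, 0 of 11 were higher and 2 lower. In cluster 3, 3 of 10 were higher and 0 lower, against 4.19% and 8.95% of all genes there. In the sum 3 of 13 were higher and 0 lower (median 0.14). Fn1, the fibronectin gene, had 354 and 1036 CPM (log2 1.55, 1.53 to 1.57), and Tnc, the tenascin gene, 303 and 749.7, with Ltbp2 as the third. Ccn1 had 1622 and 1365 CPM, and Tgfbi 1.76 and 1.19. Fn1 was also higher in cluster 3 (log2 2.16) and, under the limit, in cluster 2 (log2 0.51), whereas Tnc was higher in cluster 3 (log2 1.63) and was at −0.087 (−0.13 to −0.042) in cluster 2. Of 3 BMP targets with enough UMIs Bambi and Smad6 were higher in the sum, from only 98 and 137 and from 78 and 105 UMIs. Msx2, a homeobox gene, was lower at 55.3 and 36.6 CPM (log2 −0.59, −0.67 to −0.52). Of these, only Msx2 had enough UMIs in clusters 2 and 3, at log2 ratios of −1.08 and −0.84. Msx2 was lower in 6 of 7 clusters, where Bambi was higher in 4 and Smad6 in 3. The E protein genes Tcf3, Tcf12 and Tcf4, partners of the Id proteins, were within 1.5-fold, at log2 ratios of 0.41, 0.27 and −0.07.

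**Figure D5:**
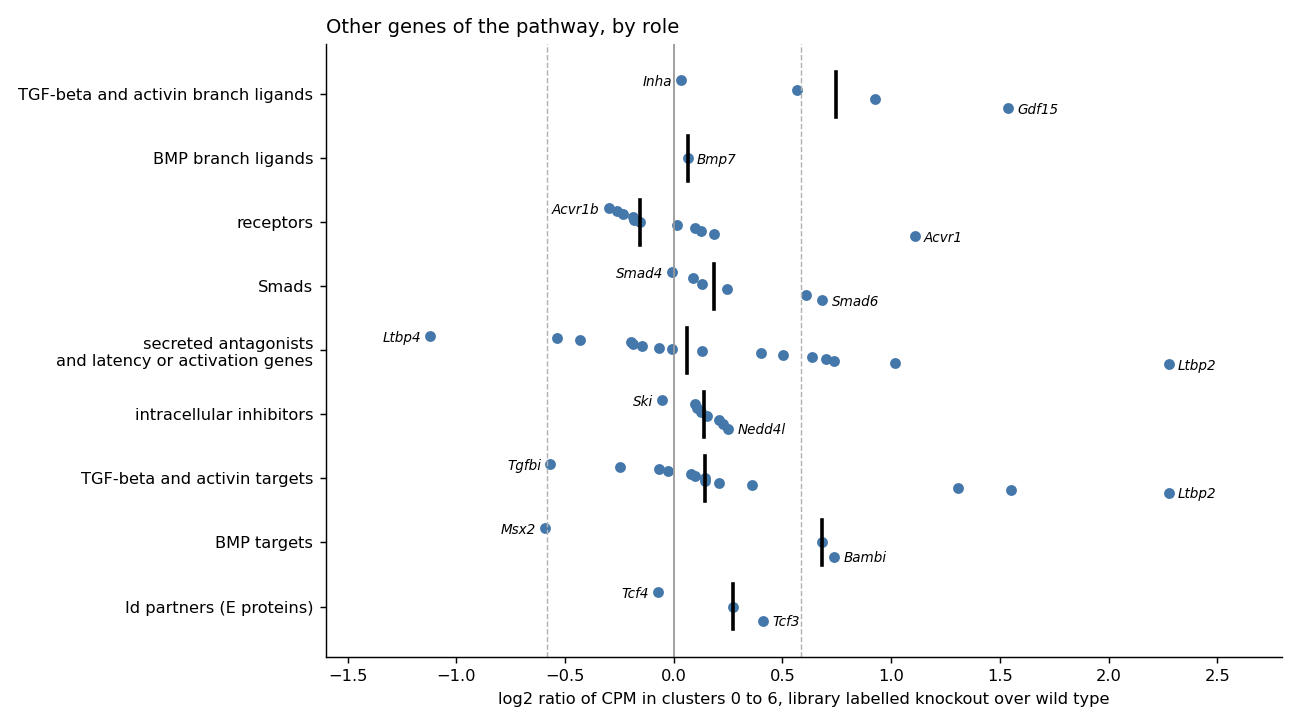
log2 ratio of CPM in clusters 0 to 6, library labelled knockout over wild type, for each pathway gene with at least 100 UMIs (points), by role, with the median of each list (black bar) and 1.5-fold as dashed lines. The lowest and highest gene of each list are named. Most receptors and intracellular inhibitors lie near 0, with Acvr1 apart at 1.11.

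The genes with the most similar level profiles were found over 21 profiles (each cluster of each library with at least 10 cells) among 11838 genes, by Pearson's r of log2 CPM. The profiles share 2 libraries, so r is a description with no test. Mbd2 (0.88) and Mab21l3 (0.88) were most like Fst, Tpm2 and Ankrd1 (both 0.95) most like Inhba, and Smad2 (0.93) most like Tgfb2. Twf2 (0.93) was most like Tgfb1, Lin7c (0.87) most like Smad7, Gas7 (0.82) most like Id1, Ostf1 (0.92) most like Id2 and Mbnl2 (0.89) most like Id3. Between the 10 genes, Inhba and Id2 ran most opposite (r = −0.80), Fst and Tgfb2 ran together (0.70), and Id1 and Id3 hardly did (0.18).

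In GRCm38, Fst (identifier 14313) lies on chromosome 13 at 114452262 to 114458989 and Inhba (16323) on chromosome 13 at 16004256 to 16031609. Id1 (15901) lies on chromosome 2 at 152736251 to 152737410, Id2 (15902) on chromosome 12 at 25093799 to 25096092 and Id3 (15903) on chromosome 4 at 136143822 to 136145392. Bmp2 (12156) lies on chromosome 2 at 133552159 to 133562896, Bmp4 (12159) on chromosome 14 at 46383525 to 46390669, Tgfb1 (21803) on chromosome 7 at 25687002 to 25705077 and Tgfb2 (21808) on chromosome 1 at 186622787 to 186709697. Gene models named by a number overlap Fst, Bmp4, Tgfb2 and Smad7, and B230303A05Rik overlaps Inhba. The models with a row had 0 to 20 UMIs over both libraries. Gm15222, which overlaps Bmp4, had 16, where Bmp4 itself had 82 and 22 in the keratin-rich clusters. The models that overlap Fst, Inhba and Smad7, and Gm26169 at Tgfb2, have no row, so what they share with those genes is unknown.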

How the data were processed

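Per the labels' protocols, epidermal cells of 1 genotype were pooled, and about 6000 viable cells went onto a Chromium 3′ kit (version 2) per library. The submitters' processing notes name Cell Ranger 2.1, Seurat 2.0 and mm10 and give none of them a role. Each library came as a deposited table of counts, whole numbers taken as UMIs. Cell calling and the treatment of intronic and antisense reads are not given in the sources used. Of 36528 identifiers 31049 matched a RefSeq symbol of GRCm38, and 5479 without one kept their 2.67% of UMIs in the totals.

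Cells with at least 500 genes and at most 10% mitochondrial UMIs were kept, which removed 13 and 16. Scrublet at a rate of 0.02 marked 1 (0.0519%) and 7 (0.398%) as doublets, which were removed. That is too few for the caller to have worked, so doublets may remain. Both libraries were clustered jointly and without integration (scanpy 1.11.5, totals of 10000, 2000 variable genes, 30 components, 15 neighbours, Leiden resolution 0.5). A class was named where the melanocyte, Schwann or myeloid list alone led, with at least 3 markers at 5-fold. Other clusters with at least 3 such markers of a non-keratinocyte list stayed unnamed, and the rest were called keratin-rich. Summed UMIs of a class in a library, over the class total, gave CPM. Poisson, Clopper-Pearson and conditional binomial intervals are exact, at 95%. Levels with a matched cluster makeup are cluster CPM weighted by each cluster's share of the UMIs of 1 library. The code was tested on simulated data. The members and lists were chosen with earlier results of these data known. The text names the 10 members, from each list up to 2 genes of highest and 2 of lowest ratio, and up to 3 genes most like each member. Fstl3, Tnc, Ltbp1 and the genes that lead clusters were named after their values were seen. The 24 alternatives changed cell filters, resolution, weights, scaling, depth, UMI minimums and clusters, and those on makeup, on clusters with 100 cells in both libraries, on clustering without the members and on the richest cell in the small classes were added after seeing the data. Work used Python 3.11.15, numpy 2.4.6, scipy 1.17.1, pandas 2.3.3, leidenalg 0.10.2 and matplotlib 3.10.9.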

Additional observations from a re-analysis of the deposited data

Results flagged for a closer look

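Directions that differ between cell classes are given here as values, and the differences between classes were not tested. Id1 had a log2 ratio of 1.25 (1.16 to 1.35) in keratin-rich cells and 1.15 (0.81 to 1.497) in myeloid-like cells, against −0.46 (−0.74 to −0.18) in Schwann-like cells. Id3 had 0.59 (0.56 to 0.62) in keratin-rich cells against −1.85 (−2.27 to −1.44) in melanocyte-like, −0.38 (−0.52 to −0.24) in Schwann-like and −0.24 (−0.44 to −0.051) in unnamed cells. Tgfb1 had −0.12 (−0.19 to −0.062) in keratin-rich cells and 0.38 (0.063 to 0.70) in unnamed cells, where it was 0.28 (−0.081 to 0.63) without the cell of each library richest in Tgfb1. Each class is 1 sum per library, and the keratin-rich values also moved with the cluster makeup.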

How the results depend on the processing

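Over 24 alternatives Fst was lower in 24 (log2 −2.52 to −0.54, 23 past 1.5-fold) and Id1 higher in 24 (0.41 to 1.46, 22 past). Id3 was higher in 24 (0.11 to 1.03, 17 past) and Inhba in 24 (0.15 to 0.72, 2 past). The count of higher members, 3 in the report, was 0 with equal weight for each cluster and with the cluster makeup of the library labelled knockout, and 1 without cluster 1 and with the makeup of the library labelled wild type. The count of lower members, 2 in the report, was 1 after thinning to 8000 UMIs, with a minimum of 500 UMIs, without the top cell of each library, without cluster 1, 3 or 5, over clusters with 100 cells in both libraries (also at equal weight) and with either makeup, and 3 with equal weight for each cluster and without cluster 4. In many of these Bmp4 or Bmp2 dropped below the UMI minimum by construction. The median log2 ratio of the members, −0.029, was −0.23 with equal weight for each cluster, 0.071 without the top cell, 0.14 without cluster 0, 0.16 without cluster 3, 0.11 without cluster 4 and −0.10 over clusters with 100 cells in both libraries. Bmp2 turned to −1.87 with equal weight for each cluster, −0.11 without cluster 1, −0.48 with the makeup of the library labelled wild type and −1.56 with that of the library labelled knockout. Bmp4 turned to 0.13 and 0.069 with those makeups. The cause was not tested. The makeup of the library labelled knockout gives clusters 1 and 4 weights of 39.3% and 19.3%, where the library labelled wild type has 19 and 5 cells. Of 30 most similar genes 20 were shared with a pseudocount of 10 CPM in place of 1. No paired analysis was possible because each genotype has 1 library.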
